A study of Drosophila melanogaster with 30 samples.

Results

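The genes described here encode the machinery of oxidative phosphorylation: the nuclear-encoded subunits of respiratory complexes I to IV, ATP synthase, and Cyt-c-p, the cytochrome c of Drosophila body cells. A gene was taken in when a probe set of either deposited table of comparisons carried its name, in its current or an older form. Of 100 nuclear-encoded subunits and their paralogs in the RefSeq annotation, 57 genes were found in this way, on 62 of the 18952 probe sets of the array. They comprised 25 genes of complex I, 2 of complex II, 7 of complex III, Cyt-c-p, 9 of complex IV and 13 of ATP synthase. All 57 genes were in the table of culture comparisons and 40 were also in the table of cut comparisons. A probe set entered a deposited table only through an overall adjusted p under 0.001 in the authors' own test on these arrays, so the 57 genes had already differed somewhere. The other 43 genes are not named in either table, and nothing is said of them here. Counts over the 57 genes are therefore descriptions and do not speak for all subunits, and no mitochondrially encoded subunit was among the named rows.

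The respiratory chain sits in the inner mitochondrial membrane and passes electrons to oxygen. Complexes I and II take electrons from NADH and succinate, ubiquinone carries them to complex III, cytochrome c carries them on to complex IV, and ATP synthase makes ATP from the proton gradient that complexes I, III and IV build. Most subunits are encoded in the nucleus and imported, a minority in the mitochondrial genome, so the complexes need both sets. Imaginal discs are larval epithelial sacs that form adult appendages, and cut disc fragments regenerate when they are cultured in the abdomen of an adult fly.

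The study used prothoracic leg discs of male Drosophila melanogaster larvae 100 h after egg laying, kept at 25 °C. Every sample, controls included, carried w/Y on the X and Y, AyGAL4 with UAS-GFP over +, and puc[E69-I]-GAL4 over UAS-flp, a lineage reporter in which cells that have expressed puc, a target gene of JNK signalling, become GFP-positive. There were 30 arrays, 3 biological replicates by their titles in each of 10 groups. In 4 cut groups the discs had been cut to give anterior 1/4 or posterior 3/4 fragments, the fragments spent 12 or 24 h in the abdomen of an adult female, and the GFP-positive region was isolated. In 4 uncut cultured groups whole discs were cultured for the same times and the matching region was taken, without selection on GFP. In the remaining 2 groups the anterior or posterior region came from uncut discs with no culture. The cut samples thus differed from both kinds of control in the wound, and also in being the GFP-positive part of a fragment, as defined by the puc-GAL4 driver. The samples were bulk RNA, in which fewer cells of a type and less RNA per cell cannot be told apart.

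The deposited values are log2 expression values from which each probe set's mean over the 30 arrays has been subtracted, so 0 is a gene's own average, levels of different genes cannot be compared, and all values below are on this scale. A difference was called when its adjusted p in a limma fit across all 30 arrays and 18769 probe sets was under 0.05. The p-values rest on 1 spread per probe set. It was pooled over the 3 samples of each of the 10 groups and drawn towards that of the other probe sets. A spread that differs between groups is not reflected in them. Between groups, the median difference over all probe sets lay between -0.06 and 0.02 in the 12 comparisons of groups that follow. No array duplicated another. The array's control probe sets for the 2 ends of an RNA moved with the groups: the Actin 3′ minus 5′ difference had a median of 0.72 in uncut 24 h anterior samples and -0.92 in uncultured anterior samples, where replicate 3 stood lowest at -1.78. Markers of blood cells, muscle precursors and host tissue moved with the groups too, and their values are given after the respiratory genes.

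Respiratory genes were higher in cut samples than in the same region of uncut discs cultured for the same time, few of them at 12 h in the anterior region and nearly all at 24 h there, and none of the 57 genes was called lower in any of the 4 comparisons. The number called higher was 3 of 57 at 12 h in the anterior region, where 3.15% of all probe sets were called higher, and the 3 genes were Cyt-c-p, ND-B15 and COX7A. In the posterior region at 12 h, 19 of 57 rose, against 2.01% of all probe sets called higher. At 24 h, 55 of 57 rose in the anterior region, against 5.59% of all probe sets, and 34 of 57 in the posterior region, against 4.81%. The shares of all probe sets called lower in these comparisons, in the order given, were 5.69%, 3.04%, 3.03% and 5.04%. Of the 17 genes that the authors listed for culture alone, 0 were called at 12 h in either region by limma, and 15 and 3 rose at 24 h in the anterior and the posterior region. These 17 had been listed through the same uncut cultured arrays that are the controls here. The other 40 had been listed through these cut comparisons as well. They gave 3 and 19 of the calls at 12 h in the anterior and the posterior region, and 40 and 31 at 24 h. Nothing is therefore read from the size of the counts and medians of the 57 genes in these comparisons. All 3 cut samples stood above all 3 uncut cultured samples for 10 and 49 of the 57 genes at 12 h in the anterior and the posterior region (11.9% and 11.7% of all probe sets), and for 55 and 47 at 24 h (14.2% and 11.6%). For 1 gene at 12 h in the anterior region, where this held for 15.5% of all probe sets, all 3 cut samples stood below. The median log2 difference of the 57 genes was 0.10 and 0.31 at 12 h in the anterior and the posterior region, and 0.60 and 0.36 at 24 h, a median fold of 1.52 at its largest. The 2 genes not called at 24 h in the anterior region were ND-42, a complex I accessory subunit, at 0.26, and RFeSP, the Rieske iron-sulfur protein of complex III, at 0.38. Hemocyte markers moved with this result: the 4 named ones rose in cut samples at 24 h in both regions (median differences 1.53 and 1.25), and their part in it was not tested. The authors had listed these 4 markers for the cut comparisons alone, on these same arrays, so nothing is read from how many rose. The 12 h posterior count depended on single samples: it was 6 without cut replicate 1 or without uncut replicate 2, 9 without uncut replicate 3 and 11 without cut replicate 3. The 12 h anterior count was 6 without cut replicate 3. Quantile normalization between arrays gave 11 and 33 at 12 h in the anterior and the posterior region.

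Averaged over the 57 genes, the 3 cut samples at 24 h in the anterior region stood at 0.09, 0.17 and 0.06, and the uncut cultured samples at -0.51, -0.52 and -0.46. At 12 h in the same region the cut samples stood at 0.13, 0.10 and -0.11 and the uncut cultured ones at 0.04, -0.12 and -0.15, so these groups overlapped. In the posterior region the cut samples ranged between 0.00 and 0.28 and the uncut cultured samples between -0.32 and -0.20 over both times, with no overlap. The uncultured samples lay between 0.24 and 0.42, in each region above all cultured samples of that region.

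**Figure D1:**
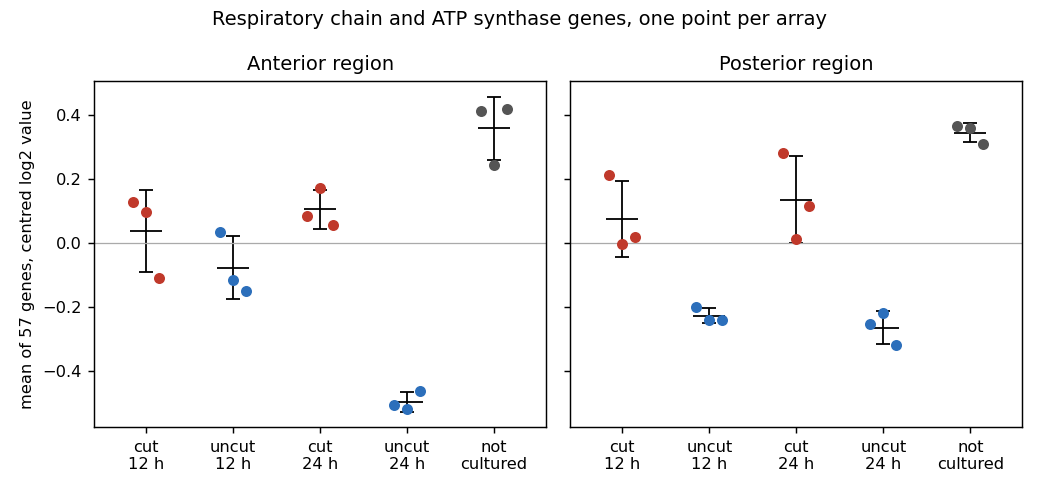
Mean centred log2 value of the 57 respiratory genes on each array, by group, for the anterior (left) and posterior (right) region; points are arrays, the bar and whiskers the mean and SD of 3. The uncut 24 h anterior samples, between -0.52 and -0.46, are the lowest of the 30 arrays.

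Complex I takes electrons from NADH, and 2 of its named genes, ND-23 and ND-24, encode core subunits that hold iron-sulfur clusters, while the other 23 encode accessory subunits around the core. Of the 25 genes, 24 rose in cut samples at 24 h in the anterior region and 12 in the posterior region. At 12 h 8 rose in the posterior region and only ND-B15 in the anterior region. The shares of all probe sets called higher were 5.59%, 4.81%, 2.01% and 3.15% in the same order. These shares apply to the counts of the other complexes below too, and nothing is read from the size of counts by complex. ND-B15 was at 0.24, 0.23 and 0.09 in cut samples and at -0.70, -0.56 and -0.66 in uncut cultured samples at 24 h in the anterior region. In the posterior region at 24 h it was at 0.33, -0.04 and 0.09 in cut samples and at -0.45, -0.36 and -0.54 in uncut cultured samples. The groups did not overlap in either region, and ND-B15 was called in all 4 cut comparisons, with log2 differences of 0.45 and 0.74 at 12 h and of 0.83 and 0.57 at 24 h in the anterior and the posterior region. At 12 h in the anterior region that call was lost without cut replicate 1 (adjusted p = 0.057) or without uncut replicate 3 (adjusted p = 0.0567). NdufV3, a small accessory subunit, was at 0.05, 0.03 and -0.03 in cut samples and at -0.61, -0.61 and -0.47 in uncut cultured samples at 24 h in the anterior region. Its difference there was 0.58 (SE 0.11, adjusted p = 0.000935), and it was not called at 12 h in the anterior region (0.17). ND-ACP, the mitochondrial acyl carrier protein that also serves fatty acid and lipoate synthesis, rose by 0.73 in both regions at 24 h and was not called at 12 h (0.07 and 0.16). ND-23 and ND-24 had 0.41 and 0.45 at 24 h in the anterior region, below the complex I median of 0.50.

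Complex II is both a respiratory complex and the succinate dehydrogenase of the citric acid cycle, and the named genes encode its membrane anchors, SdhC and SdhD. SdhD was at 0.34, 0.16 and 0.26 in cut samples and at -0.32, -0.26 and -0.41 in uncut cultured samples at 24 h in the posterior region, a difference of 0.58 (SE 0.10, adjusted p = 0.000229). The groups did not overlap. SdhC was at 0.23, -0.09 and 0.07 in cut samples and at -0.23, -0.12 and -0.29 in uncut cultured samples in the same comparison. The difference was 0.28 and was not called (adjusted p = 0.0537), but SdhC rose at 24 h in the anterior region, by 0.40 (SE 0.09, adjusted p = 0.00647), a call that was lost without cut replicate 2 (adjusted p = 0.0526) and with only the compared arrays in the fit (adjusted p = 0.056).

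Complex III passes electrons from ubiquinol to cytochrome c. In cut samples 6 of its 7 genes rose at 24 h in the anterior region, 5 in the posterior region at 24 h, 3 in the posterior region at 12 h and 0 in the anterior region at 12 h by limma, where 1 gene had an unadjusted p under 0.05. The gene ox, which encodes a small subunit of the complex, was at 0.19, 0.25 and -0.02 in cut samples and at -0.82, -0.60 and -0.83 in uncut cultured samples at 24 h in the anterior region. Its difference was 0.89 (SE 0.11, adjusted p = 1.81e-05), and the groups did not overlap. UQCR-14, a ubiquinol-binding subunit, was at 0.16, 0.23 and 0.08 in cut samples and at -0.55, -0.64 and -0.78 in uncut cultured samples in the same comparison. It rose by 0.81 with no overlap, Cyt-c1, which hands the electrons to cytochrome c, by 0.70, and the core protein gene UQCR-C2 by 0.73. In the posterior region at 24 h these 3 genes rose by 0.68, 0.54 and 0.70.

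Cyt-c-p, the mobile carrier between complexes III and IV, had the largest difference of the 57 genes in each of the 4 cut comparisons. At 24 h in the anterior region it was at 0.32, 0.45 and 0.16 in cut samples and at -1.09, -1.11 and -0.97 in uncut cultured samples. At 24 h in the posterior region it was at 0.59, 0.52 and 0.42 in cut samples and at -0.76, -0.52 and -0.70 in uncut cultured samples. At 12 h the cut samples were at 0.56, 0.29 and 0.38 in the anterior and at 0.44, 0.16 and 0.28 in the posterior region, and the uncut cultured samples at -0.23, -0.19 and -0.45 and at -0.45, -0.60 and -0.70. Every cut sample was above every uncut cultured sample of its region and time. The cut samples were higher by 2.58-fold at 24 h in the anterior region (log2 1.37, SE 0.10, adjusted p = 4.34e-09) and by 2.25-fold in the posterior region (log2 1.17, SE 0.10, adjusted p = 5.64e-08). At 12 h the folds were 1.63 (adjusted p = 4.23e-05) and 1.84 (adjusted p = 1.18e-05).

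Complex IV reduces oxygen to water. Of its 9 named genes, 9 rose in cut samples at 24 h in the anterior region, 8 in the posterior region at 24 h, 4 in the posterior region at 12 h, and COX7A alone in the anterior region at 12 h. The largest differences were in genes of small subunits: COX8 was at 0.24, 0.33 and 0.05 in cut samples and at -0.82, -0.79 and -0.77 in uncut cultured samples at 24 h in the anterior region (log2 difference 1.00, SE 0.10, adjusted p = 5.26e-07). In the posterior region at 24 h COX8 was at 0.34, 0.05 and 0.17 in cut samples and at -0.51, -0.62 and -0.58 in uncut cultured samples. Neither pair of groups overlapped. COX5B rose by 0.94 and 0.79 at 24 h in the anterior and the posterior region. COX7A was at 0.36, 0.30 and 0.12 in cut samples and at -0.07, -0.27 and -0.23 in uncut cultured samples at 12 h in the anterior region, a difference of 0.45 (SE 0.09, adjusted p = 0.00207). COX4, a larger nuclear-encoded subunit, had the smallest difference of the 9 at 24 h in the anterior region, 0.47.

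ATP synthase couples the return of protons to the synthesis of ATP. Its 13 named genes included blw and ATPsynbeta, which encode the alpha and beta subunits of the catalytic head, and stalk and membrane subunits such as ATPsynO, the oligomycin sensitivity protein that joins the head to the stalk. In cut samples all 13 rose at 24 h in the anterior region, 7 in the posterior region at 24 h, 2 at 12 h in the posterior region, and none was called at 12 h in the anterior region by limma, where 1 had an unadjusted p under 0.05. ATPsynO was at 0.01, 0.22 and 0.01 in cut samples and at -0.60, -0.77 and -0.59 in uncut cultured samples at 24 h in the anterior region, a difference of 0.74 (SE 0.09, adjusted p = 1.56e-05). ATPsynCF6, coupling factor 6 of the stalk, was at 0.02, 0.25 and 0.04 in cut samples and at -0.60, -0.50 and -0.40 in uncut cultured samples, a difference of 0.60. The groups did not overlap for either gene. The catalytic subunit genes had smaller differences at 24 h in the anterior region, 0.37 for blw and 0.41 for ATPsynbeta, and were not called at 24 h in the posterior region (0.17 and 0.15).

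**Figure D2:**
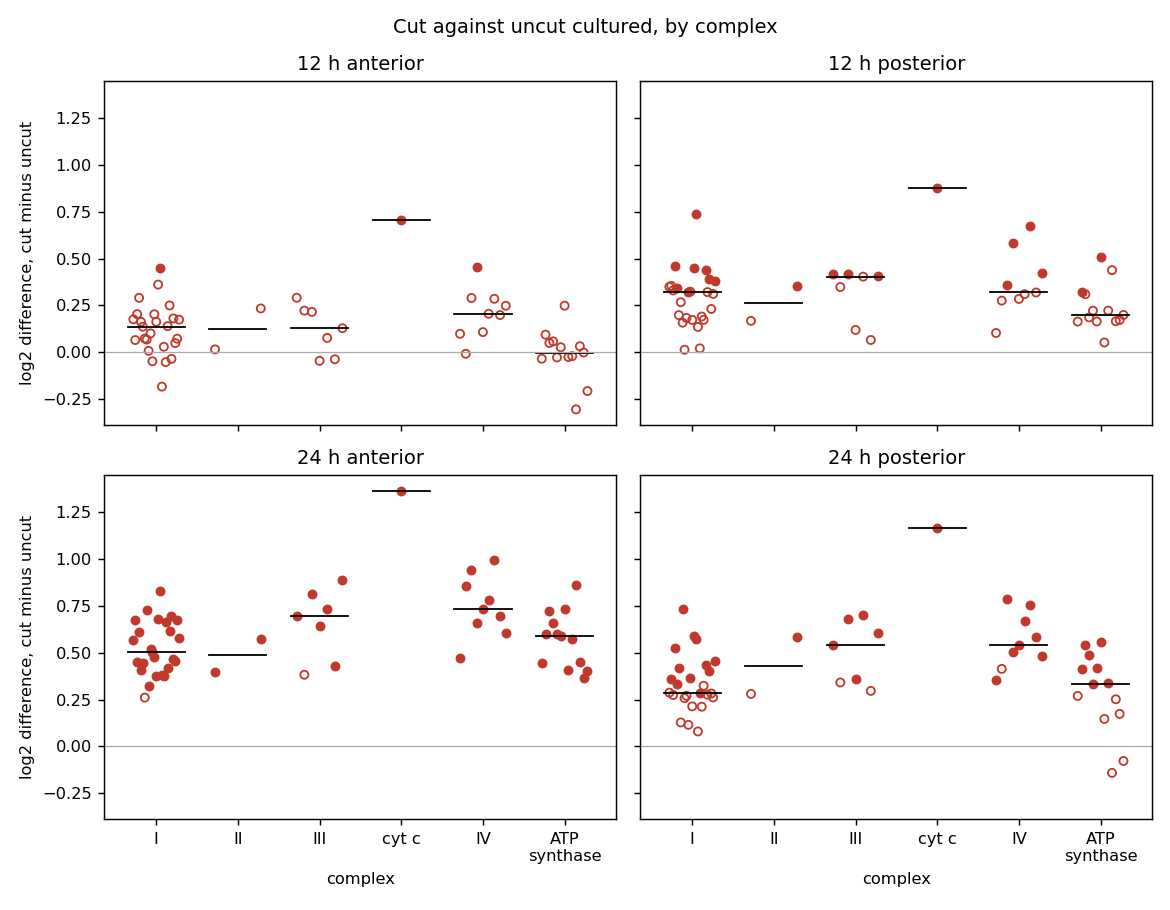
Log2 difference of each respiratory gene, cut minus uncut cultured, by complex, in the 4 comparisons; filled points have an adjusted p under 0.05 and lines are medians. Cyt-c-p stands highest in every panel, between 0.71 and 1.37, and the medians of complexes III and IV at 24 h are 0.70 and 0.73 in the anterior and 0.54 and 0.54 in the posterior region.

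Culture alone went with lower values of the same genes. In uncut cultured discs against uncultured discs, 41 of 57 genes fell at 12 h in the anterior region and 50 in the posterior region, and 57 and 52 fell at 24 h. None was called higher. The shares of all probe sets called lower were 6.29% and 9.76% at 12 h in the anterior and the posterior region, and 18.1% and 9.56% at 24 h, and the shares called higher 9.51%, 10.5%, 14% and 14.6% in the same order. Since all 57 genes had been listed by the authors through these culture comparisons, nothing is read from the size of those counts. The median log2 differences were -0.44 and -0.57 at 12 h in the anterior and the posterior region and -0.86 and -0.58 at 24 h. With only the arrays of the groups compared in the fit, the 12 h anterior count was 21. The uncut cultured samples also served as the controls of the cut comparisons, so the fall in culture and the rise in cut samples share those arrays.

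Either Cyt-c-p or COX8 had the largest fall in each of the 4 culture comparisons. Cyt-c-p was at -1.09, -1.11 and -0.97 in uncut 24 h anterior samples and at 0.64, 0.41 and 0.58 in uncultured anterior samples, 3.03-fold lower (log2 -1.60, SE 0.10, adjusted p = 1.79e-11). COX8 was at -0.51, -0.62 and -0.58 in uncut 24 h posterior samples and at 0.78, 0.74 and 0.74 in uncultured posterior samples, 2.50-fold lower (log2 -1.32, SE 0.10, adjusted p = 2.46e-10). Neither gene's groups overlapped. At 24 h in the anterior region the medians by complex were -0.70 for complex I, -0.63 for complex II, -1.06 for complex III, -1.08 for complex IV and -0.87 for ATP synthase. ND-B15 fell by 1.15, ox by 1.27, SdhD by 0.80 and ATPsynO by 1.08, while ND-42, with the smallest difference, fell by 0.42. ATPsynbeta and blw were not called at 24 h in the posterior region (-0.12 and -0.19), although a second probe set of ATPsynbeta was called lower in all 4 culture comparisons. Over the 8 comparisons, ND-B15, COX7A and Cyt-c-p were called in all 8, another 13 genes in 7, and the 3 genes with the fewest calls in 2.

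**Figure D3:**
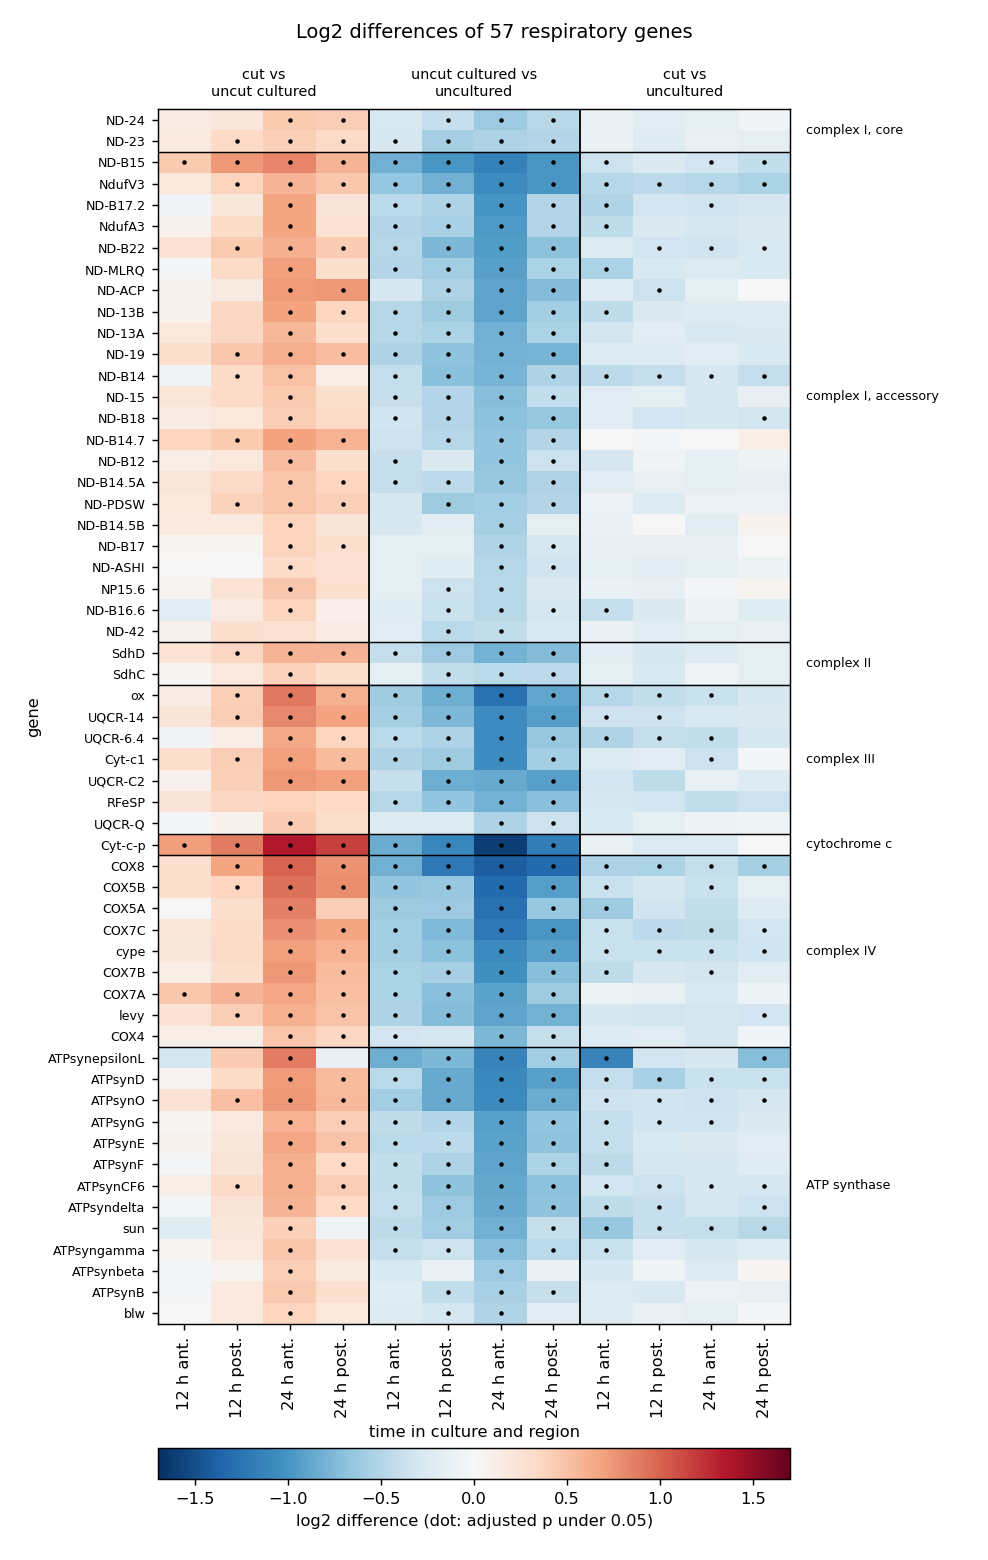
Log2 differences of the 57 respiratory genes (rows, grouped by complex) in 12 comparisons (columns): cut against uncut cultured, uncut cultured against uncultured, and cut against uncultured; black dots mark an adjusted p under 0.05. The first block has 3, 19, 55 and 34 dots by column, all on higher values, the second 41, 50, 57 and 52 on lower values, and the third 27, 16, 18 and 15 on lower values.

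A comparison added after the data were seen set the cut samples against uncultured discs of the same region, which leaves the uncut cultured arrays out of the difference. Here respiratory genes were lower in cut samples by smaller amounts, with medians of -0.31 and -0.26 at 12 h in the anterior and the posterior region and -0.27 and -0.21 at 24 h. The number of genes that fell was 27 and 16 at 12 h and 18 and 15 at 24 h, and none was called higher. The shares of all probe sets called lower were 7.56% and 3.95% at 12 h and 5.53% and 7.22% at 24 h, and the shares called higher 7.28%, 4.2%, 7.56% and 11.2% in the same order. The authors had listed every one of the respiratory genes through culture comparisons that have the same uncultured arrays as their baseline. Nothing is therefore read from the size of these counts and medians, which are not a separate check on the fall in culture. The genes that fell in all 4 on the probe set used were ATPsynCF6, ATPsynD, ATPsynO, sun, COX7C, COX8, cype, ND-B14 and NdufV3. The second probe set of ATPsynbeta also fell in all 4, by 0.61 and 0.50 at 12 h in the anterior and the posterior region and by 0.75 and 0.42 at 24 h. The probe set used for ATPsynbeta was called in none of the 4 (-0.29 to 0.03). COX8 was at 0.24, 0.33 and 0.05 in cut 24 h anterior samples and at 0.54, 0.45 and 0.82 in uncultured anterior samples, a difference of -0.40 (SE 0.10, adjusted p = 0.00575). Cyt-c-p was called in none of the 4. It was at 0.59, 0.52 and 0.42 in cut 24 h posterior samples and at 0.57, 0.53 and 0.46 in uncultured posterior samples, overlapping ranges with a difference of -0.01 (95% interval -0.22 to 0.20, adjusted p = 0.966), and its largest difference was -0.24 at 24 h in the anterior region. COX7A was not called in any of the 4 (-0.25 to -0.08), and ND-B14.7, a complex I accessory subunit, had differences between -0.03 and 0.10. By complex, 10, 6, 5 and 6 of the 13 ATP synthase genes fell in these comparisons, taken as anterior then posterior at 12 h and then at 24 h, and 8, 4, 5 and 5 of the 25 complex I genes. These counts moved with single samples and with the processing. The 12 h anterior count was 13 without cut replicate 3. The 12 h posterior count was 6 without cut replicate 2 or uncultured replicate 1, and 7 without cut replicate 3 or uncultured replicate 2. The 24 h anterior count was 3 without cut replicate 3 and 8 without uncultured replicate 3, and only 1 gene was called after quantile normalization between arrays. The 24 h posterior count was 5 without cut replicate 2, 7 without uncultured replicate 1 and 9 without cut replicate 3.

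**Figure D4:**
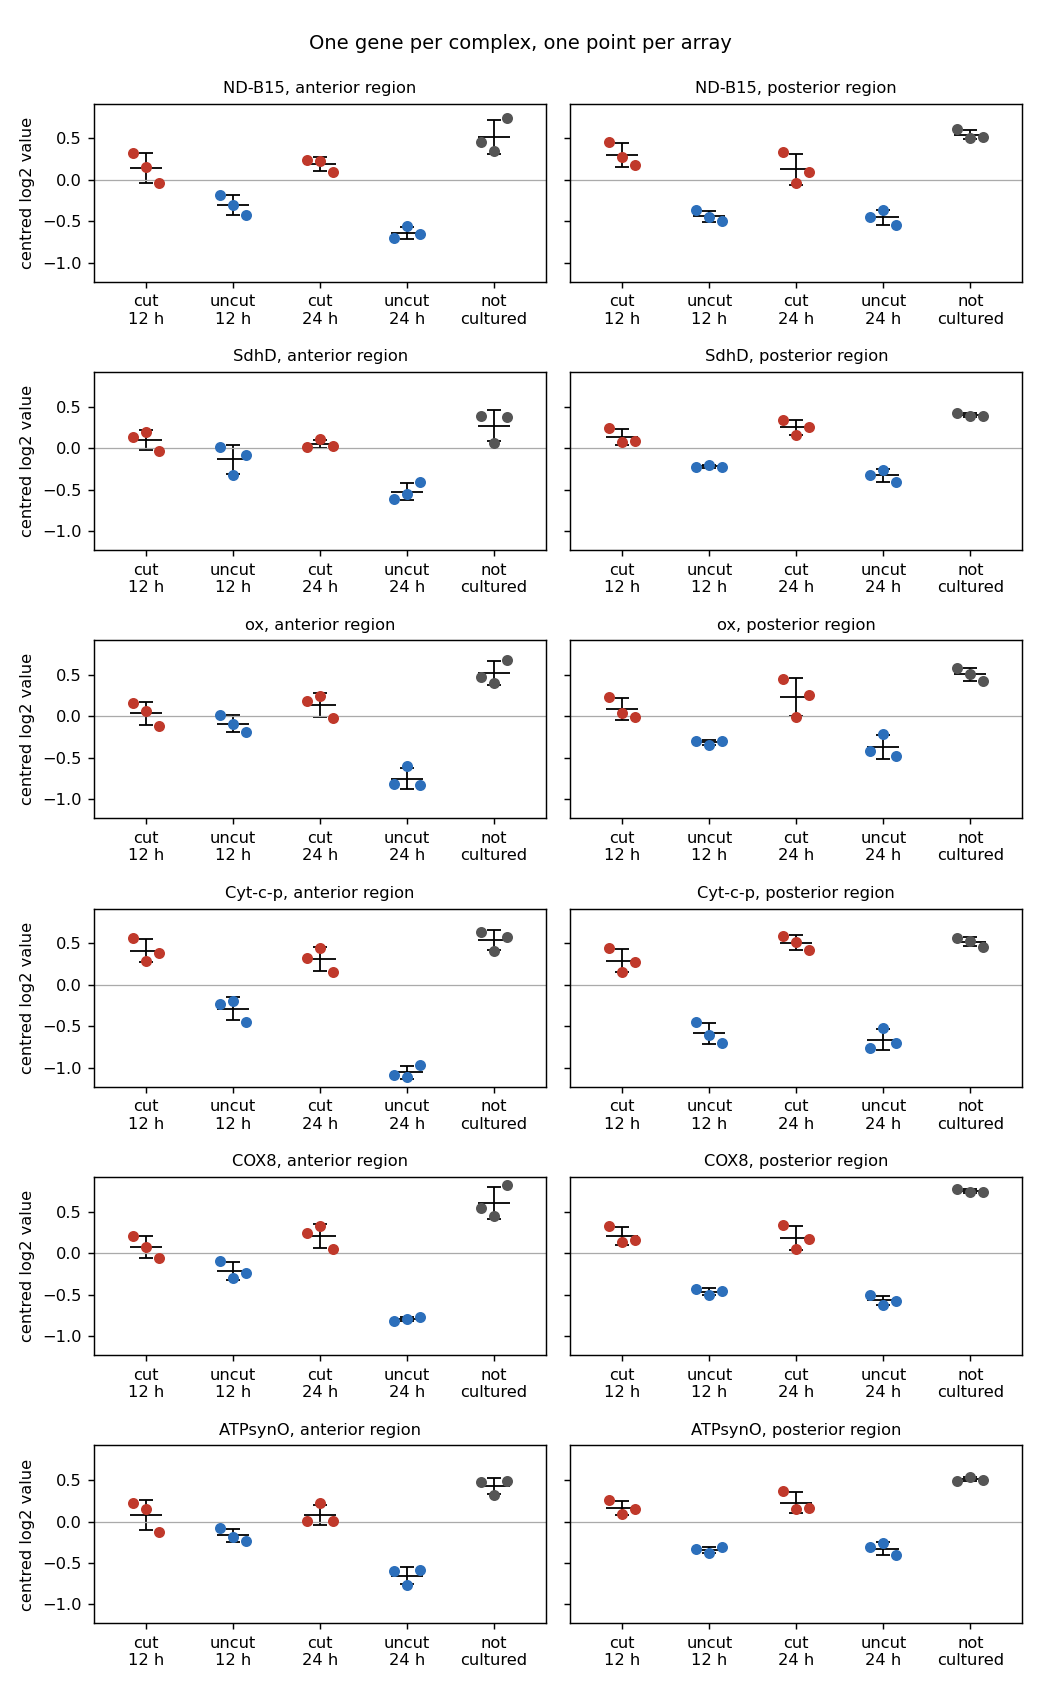
Centred log2 value of 1 gene of each complex and of Cyt-c-p on each array, by group and region; points are arrays, the bar and whiskers the mean and SD of 3. In the 24 h anterior panels each gene's cut samples lie above its uncut cultured samples, for Cyt-c-p at 0.16 to 0.45 against -1.11 to -0.97.

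In the anterior region the difference of cut from uncut cultured samples was larger at 24 h than at 12 h for 25 of 57 genes, where 1.6% of all probe sets were called in that direction, with a median change of 0.47. They were 9 ATP synthase genes, 7 complex I genes, 3 complex III genes, 5 complex IV genes and Cyt-c-p. In the posterior region the same test called none of the 57 by limma (0.474% of all probe sets), with a median change of 0.09, and 5 genes had an unadjusted p under 0.05 upward and 1 downward. Whether the change over time differed between the regions was not tested. The fall in culture likewise was deeper at 24 h than at 12 h in the anterior region for 31 of 57 genes (1.72% of all probe sets, median change -0.39) and for none by limma in the posterior region (0.623% of all probe sets, median change -0.04, 5 with an unadjusted p under 0.05). Among the genes of the first test were ox, with a change in the cut effect of 0.76 (SE 0.16, adjusted p = 0.00953), and COX8, with 0.71 (SE 0.14, adjusted p = 0.00593). Both tests used the uncut 12 h and 24 h anterior samples, and ox was at -0.82, -0.60 and -0.83 in uncut cultured samples at 24 h and at 0.02, -0.09 and -0.19 at 12 h. The authors had listed all 57 genes through culture comparisons on these uncut anterior samples, and 40 also through the cut comparisons. Nothing is therefore read from the size of the counts, which also rested on few samples. The cut count of 25 was 6 without cut 12 h replicate 3, 7 without uncut 12 h replicate 1, 8 and 14 without cut 24 h replicates 2 and 1, and 15 without uncut 24 h replicate 1. The culture count of 31 was 9 without uncut 12 h replicate 1 and 18 without uncut 24 h replicate 1. With only the arrays of the groups compared in the fit, the counts were 10 and 9, and quantile normalization gave 18 for culture.

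The regions themselves were not shown to differ. The posterior minus anterior difference of the cut effect was called for none of the 57 genes by limma at 12 h (median 0.17, 6 with an unadjusted p under 0.05) or at 24 h (median -0.17, 8 with an unadjusted p under 0.05). For the culture effect none was called by limma at 12 h (median -0.14, 7 with an unadjusted p under 0.05) or at 24 h (median 0.23, 20 with an unadjusted p under 0.05). The shares of all probe sets called in these 4 tests were 0.208%, 0.123%, 0.192% and 1.28%.

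Across the 30 arrays the genes followed one another closely. Pearson's r of a gene with the mean of the other 56 had a median of 0.94 and exceeded 0.9 for 38 of 57 genes. This is a description over arrays that share their groups and normalization. All 57 genes had been listed for differences among these same arrays, and no r of other listed probe sets is given. Nothing is therefore read from the height of r. ATPsynO, ox and UQCR-14 were highest, each at 0.98. The lowest were ATPsynepsilonL, a paralog of the ATP synthase epsilon subunit, at 0.70, and sun, the epsilon subunit gene stunted, at 0.76. ATPsynepsilonL rose in cut samples at 24 h in the anterior region, by 0.86, and its other cut differences were -0.31, 0.44 and -0.14, at 12 h in the anterior, 12 h in the posterior and 24 h in the posterior region. Against uncultured discs it fell in cut samples by 1.13 at 12 h in the anterior and by 0.72 at 24 h in the posterior region, the lowest values of the 57 genes there. ATPsynbeta, ATPsyngamma, COX7B and ND-ACP had several named probe sets, and in none of these genes were probe sets called in opposite directions. Whether probes are shared between sun and ATPsynepsilonL was not examined here.

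Measures of RNA ends and gene size moved with the respiratory genes. Over the 30 arrays the mean of the 57 genes had a Pearson's r of -0.70 with the Actin 3′ minus 5′ difference, -0.46 with that of GAPDH and -0.23 with that of eIF-4a, as descriptions over arrays of 10 groups. With the mean of the 3 control differences as a covariate, chosen after seeing the data, 5, 23, 56 and 37 genes were called higher in cut than in uncut cultured samples in the anterior and the posterior region at 12 h and then at 24 h. In the culture comparisons 41, 51, 56 and 54 genes were called lower with that covariate. The respiratory genes are short, with a median genomic span of 1100 bp in RefSeq, against 3005 bp for the other named probe sets of the culture table. Among other named probe sets with a span under 1000 bp, the median difference of uncut 24 h anterior from uncultured samples was -0.69, and it was 0.57 above 4000 bp. The respiratory genes had -0.94 under 1000 bp (24 genes), -0.78 between 1000 and 2000 bp (26 genes), -0.84 between 2000 and 4000 bp (4 genes) and -0.86 above 4000 bp (3 genes). In the cut comparison at 24 h in the anterior region the medians under 1000 bp were 0.65 for respiratory genes and 0.45 for the other named probe sets, and above 4000 bp 0.57 and -0.18. The part of RNA quality and of gene size in these results was not tested beyond these values.

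**Figure D5:**
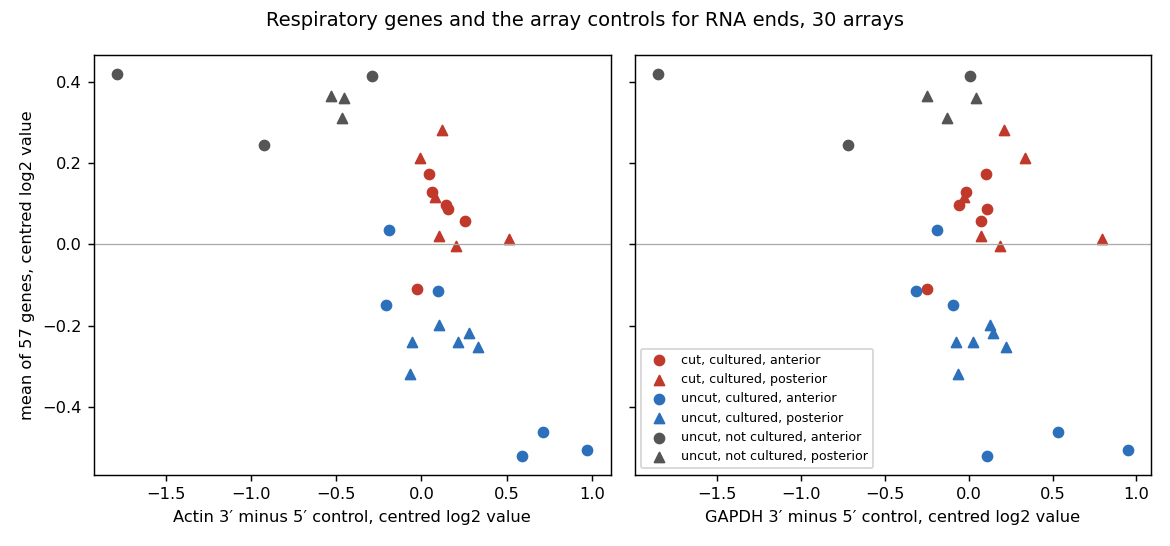
Mean centred log2 value of the 57 respiratory genes against the 3′ minus 5′ difference of the Actin (left) and GAPDH (right) control probe sets, 1 point per array, coloured by group and shaped by region. In the Actin panel uncut 24 h anterior samples lie at the lower right and uncultured samples at the upper left, and uncultured anterior replicate 3 has the lowest Actin difference, -1.78.

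Other mitochondrial genes are given for comparison, from lists of import, carrier, matrix enzyme, assembly and regulator genes. They too were named only where the authors' test on these arrays had listed them, so nothing is read from the size of their counts. Of 15 listed genes of mitochondrial carriers and import 9 were named, all 9 through the culture comparisons and 7 also through the cut comparisons. These 9 rose in cut samples at 24 h in the anterior region, where 5.59% of all probe sets were called higher. In uncut cultured against uncultured samples there, where 18.1% of all probe sets were called lower, the same 9 fell. They included Ant2, an adenine nucleotide carrier (1.20 and -1.64), Tim9a, a chaperone of the intermembrane space (0.76 and -1.27), and porin, the channel of the outer membrane (0.61 and -0.84). Of 18 listed genes of the citric acid cycle and pyruvate dehydrogenase 7 were named, 6 of them through the culture comparisons. Of these 7 genes, 5 rose in the first comparison and 6 fell in the second. The gene kdn, which encodes citrate synthase, had the largest values, 1.16 and -2.25, and Fum1, a fumarase gene, rose in culture by 0.55 and was not called in cut samples (-0.09). The 3 named assembly factors did not move alike: Sdhaf3 rose by 0.90 in cut samples and fell by 1.27 in culture and Coa8 by 0.60 and 0.87, while Sirup, also known as Sdhaf4 and needed for complex II assembly, fell by 0.61 in cut samples and rose by 2.17 in culture. Among 6 named regulators of mitochondrial genes in the same 24 h anterior comparisons, 2 rose in cut samples, and in culture 3 fell and 3 rose. Of these srl, the fly PGC-1 homolog, rose by 0.40 in cut samples and fell by 0.38 in culture, whereas ewg, the homolog of NRF-1, rose by 1.21 in culture and was not called in cut samples (-0.51).

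Markers of other cells were followed in the same comparisons, with 1 probe set a gene. A marker was named only where the authors' test on these arrays had listed it, so nothing is read from the size of the marker counts. The shares of all probe sets called are those given above for each comparison. Of 6 hemocyte markers 4 were named (Hml, NimC1, Sr-CI and eater), all of them through the cut comparisons alone, while He and Pxn were not. In cut against uncut cultured samples 1 of the 4 rose at 12 h in each region and 4 at 24 h in each, with medians of 0.69 and 0.89 at 12 h in the anterior and the posterior region and of 1.53 and 1.25 at 24 h. In uncut cultured against uncultured samples 2 and 0 were called higher at 12 h and 4 and 1 at 24 h by limma, with medians of 0.73, 0.42, 1.13 and 0.72 in the same order, and at 12 h in the posterior region 0 had an unadjusted p under 0.05. All 4 rose in each comparison of cut with uncultured samples, with medians between 1.24 and 2.72. Centred values do not show whether a marker was at or near 0 in a group.

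Yp1, a yolk protein gene of the adult female, was the 1 named of 8 host markers. It rose in the uncut anterior region in culture, by 2.27 at 12 h and 3.16 at 24 h, and was not called in the posterior region (0.29 and 0.41). In cut against uncut cultured samples it rose by 1.85 at 24 h in the posterior region and was not called in the other comparisons (-0.26 to 0.27). Of 5 myoblast markers 4 were named, twi, htl, zfh1 and Mef2, genes of muscle precursors. The authors had listed all 4 for the cut comparisons on these arrays, and only Mef2 also for culture. In the cut comparisons 5.69% and 3.04% of all probe sets were called lower at 12 h in the anterior and the posterior region, and 3.03% and 5.04% at 24 h. In cut against uncut cultured samples 3 and 1 of the 4 markers fell at 12 h in the anterior and the posterior region and 0 and 2 at 24 h by limma, with medians of -0.71, -0.44, -0.14 and -0.40, and at 24 h in the anterior region 1 had an unadjusted p under 0.05. In culture 3 and 1 rose at 12 h and 1 and 4 at 24 h, with medians of 0.45, 0.28, 0.19 and 0.57. Of 8 differentiated muscle markers bt and Mlc2 were named. In cut against uncut cultured samples bt rose by 2.45 and 1.81 at 12 h in the anterior and the posterior region and by 0.94 at 24 h in the anterior region, and was not called at 24 h in the posterior region (0.47), while Mlc2 was called in none (-0.33 to -0.11). In culture Mlc2 rose in all 4 comparisons (0.63 to 0.94), and bt at 24 h in the posterior region alone, by 1.16.

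Of 8 leg disc markers Scr and ap were named, while Dll and dac, which pattern the leg along its length, are not named in the tables, so that the label could not be checked against them. In cut against uncut cultured samples at 24 h in the anterior region ap, a homeobox gene of the distal leg, fell by 0.46 on the probe set used and by 1.53 on its second probe set, and Scr, the homeotic gene of the prothorax, was not called (0.01). Scr fell by 0.83 at 12 h in the anterior region and by 0.77 at 24 h in the posterior region, where ap was not called on the probe set used (-0.23 and -0.21) and fell by 1.58 and 0.86 on the second. Of 6 neuron and glia markers futsch, moody and repo were named. In cut against uncut cultured samples futsch fell by 1.21 and moody rose by 1.22 at 12 h in the anterior region, futsch fell by 1.41 and moody rose by 0.92 at 24 h in the posterior region, and repo fell by 0.84 and 1.81 at 12 and 24 h in the anterior region. The part of these cell types in the respiratory results was not tested.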

How the data were processed

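RNA of 30 samples was extracted with a PicoPure kit, amplified in 2 cycles and hybridized to Affymetrix arrays, per the labels' protocols. The authors deposited log2 values per probe set for each array, and 2 tables of log fold changes with an overall adjusted p-value. The submitters' processing notes name RMA for normalization and limma for tests; build and annotation are not given in the sources used here, and the base of the logarithm was taken as 2. Each row of the deposited log2 values has a mean of 0 over the 30 arrays, so no signal over background can be given and the number of arrays limits the precision.

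Gene names came from the deposited tables, updated through RefSeq: 3284 of 3556 listed probe sets matched a symbol. Where a gene had several probe sets, the one with the smallest SD within groups was used, in place of the highest mean, which centring removes. The members and lists were chosen with earlier results of these data known, and NdufA3 and NdufV3 were added on finding their rows. limma 3.58.1 in R 4.3.3 fitted 30 arrays in 10 groups, with no block, over 18769 probe sets after 183 array controls were left out, with empirical Bayes and Benjamini-Hochberg adjustment within each comparison at 0.05. The fit had 20 residual and 5.26 prior degrees of freedom and was tested on simulated data. Genes with values in every sample are, for each complex, the 2 called in most of 8 comparisons, ties going to the larger difference; others are named as the 3 with the largest difference, as extremes of a group, or for their role after their values were seen. Alternatives were median shifting, quantile normalization, a replicate block, robust estimation, the compared groups alone, the mean of all probe sets of a gene, a covariate for the array's 3′ and 5′ controls, keeping the array controls, and leaving out each sample.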

Additional observations from a re-analysis of the deposited data

Results flagged for a closer look

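The test of a difference between time points (24 h minus 12 h) passed its threshold for respiratory genes in the anterior region. It did so for 25 in the cut effect and for 31 in the culture effect. The shares of all probe sets called in these directions were 1.6% and 1.72%. Leaving out each sample in turn gave 6 to 28 and 9 to 34 genes. The authors had listed the genes on these same arrays, so nothing is read from the size of the counts. Of the genes given in full, the change in the cut effect was 0.76 for ox, 0.71 for COX8, 0.66 for Cyt-c-p, 0.60 for UQCR-14, 0.51 for ATPsynCF6 and 0.49 for ATPsynO on the log2 scale. The change in the culture effect was -0.76 for Cyt-c-p, -0.66 for ox, -0.58 for COX8, -0.51 for UQCR-14, -0.49 for ATPsynO, -0.45 for ATPsynCF6, -0.41 for NdufV3, -0.39 for SdhD and -0.38 for COX7A. The 2 sets of changes share the uncut 12 h and 24 h anterior samples and are not separate evidence.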

How the results depend on the processing

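Medians were followed in the 8 comparisons of cut with uncut cultured and of uncut cultured with uncultured samples, and none changed direction under any alternative. In these 8 comparisons no called difference of a gene given in full changed direction either. Medians of the other comparisons and tests were not followed, and counts were compared by size alone. Median shifting, robust estimation and keeping the array controls left every count within 1.5 times and every median that was followed within the spread between replicates. The filter on dim probe sets and the intensity trend were not run, because the centred values hold no level. Quantile normalization gave medians of 0.40 for cut against uncut cultured samples at 12 h in the posterior region and -0.72 for culture at 24 h in the anterior region. It called 11 and 33 genes in the cut comparisons at 12 h (anterior, posterior), 13, 9 and 1 against uncultured samples (12 h anterior, 12 h posterior, 24 h anterior) and 18 in the test of culture over time. A fit on the compared arrays alone, with fewer samples to estimate the spread, called 21 genes in culture at 12 h in the anterior region, 9, 1 and 9 for cut against uncultured samples (12 h anterior, 24 h anterior, 24 h posterior), 10 and 9 in the anterior tests of the cut and culture effects over time, and 1 in the posterior minus anterior test of the cut effect at 12 h. The mean of all probe sets of a gene gave 1 call in the posterior minus anterior test of culture at 24 h. The replicate block and the covariate for RNA ends each called 5 genes for cut against uncut cultured samples at 12 h in the anterior region. Samples of the same number deviated together little (r over 0.1 in 8 of 36 pairs, between -0.19 and 0.26). The mean r over all group pairs was 0.02 for the same number and -0.01 for other numbers. Uncut 12 h anterior with uncultured anterior samples had 0.26, 0.16 and 0.05 for replicates 1, 2 and 3. The numbers were not taken as pairs, and the replicate block moved no other count by over 1.5 times. The cause of these changes was not tested.

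Leaving out each sample in turn gave 2 to 6 and 6 to 24 genes for cut against uncut cultured samples at 12 h (anterior, posterior), 46 to 55 and 23 to 38 at 24 h, and 36 to 44, 47 to 51, 57 to 57 and 47 to 53 in the culture comparisons in the same order. For cut against uncultured samples the ranges were 13 to 30 and 6 to 20 at 12 h and 3 to 24 and 5 to 21 at 24 h. Over time they were 6 to 28 for the cut effect and 9 to 34 for culture in the anterior region and 0 to 1 for the cut effect in the posterior region, with 1 call without cut 24 h anterior replicate 3 or uncut 24 h posterior replicate 2. The posterior minus anterior tests at 24 h gave 0 to 1 calls, with 1 for the cut effect without cut 24 h posterior replicate 1 or uncultured anterior replicate 3 and 1 for culture without uncut 24 h anterior replicate 3. Of the calls of single genes, those for cut against uncut cultured samples at 12 h in the posterior region were the least stable: NdufV3, ox and SdhD each lost theirs, with adjusted p between 0.0511 and 0.151, without any 1 of the samples compared, and ATPsynCF6 and UQCR-14 without some of them. With 3 arrays a group, and no signal over background in the deposited values, dim probe sets could not be set apart.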
